A study of Homo sapiens with 6 samples.

Results

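The ELR chemokines are the CXC chemokines that carry a glutamate-leucine-arginine motif ahead of their first cysteines, and 6 of them, CXCL1, CXCL2, CXCL3, CXCL5, CXCL6 and CXCL8, were taken by gene symbol from a table of 60664 Ensembl genes. The rule that picks them uses names and no measured value, although earlier results of these data were known when it was written. U-2 OS, a human osteosarcoma line, received either control siRNA (siControl) or siRNA against SFPQ (siSFPQ), and both groups were transient lipid transfections of 1 polyploid line at 30 nM siRNA. Each group gave 3 poly(A) RNA libraries, described by the study as biological replicates. Reads counted on genes totalled 46142855, 47119203 and 46830736 in siControl replicates 1 to 3, against 43469321, 45511855 and 45543610 in siSFPQ.

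ELR chemokines are secreted ligands of the receptors CXCR1 and CXCR2 and draw neutrophils to sites of injury or infection. CXCL8, also called interleukin-8, is the best known of them. Their genes lie together on chromosome 4 and are classic targets of NF-kB and AP-1 downstream of interleukin-1, tumour necrosis factor and Toll-like receptors, and their mRNAs are short-lived through AU-rich elements. SFPQ is a DNA- and RNA-binding protein of the DBHS family that resides in nuclear paraspeckles, which are built on the long noncoding RNA NEAT1, and it has been described as a repressor of CXCL8 that NEAT1 can sequester.

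The promoters are shown because all 6 members share 1 element, while of the 2 tested members CXCL8 rose and CXCL3 did not pass. In the RefSeq promoter set (GRCh38.p14, 250 bases before to 50 after each start), all 6 members were found and each held the NF-kB letters GGAATTTCC, read on both strands, between 91 and 69 bases before the start. Positions are counted from the RefSeq start. The GENCODE 44 gene span begins at the same base for CXCL1 and CXCL5 and further upstream for CXCL2 (by 1 base), CXCL6 (38), CXCL8 (50) and CXCL3 (118), so the CXCL3 window shown here lies inside its GENCODE span. Those letters stood in 0.461% of 35116 promoters of the same length. The 40-base windows below, all on chromosome 4, run 5′ to 3′ on the gene's own strand with the NF-kB letters in capitals. They lie at chr4:73869300-73869339 (CXCL1, plus), chr4:74099248-74099287 (CXCL2, minus), chr4:74038743-74038782 (CXCL3, minus), chr4:73998743-73998782 (CXCL5, minus), chr4:73836574-73836613 (CXCL6, plus) and chr4:73740463-73740502 (CXCL8, plus).
CXCL1: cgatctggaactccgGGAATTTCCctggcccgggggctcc
CXCL2: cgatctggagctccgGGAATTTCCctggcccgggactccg
CXCL3: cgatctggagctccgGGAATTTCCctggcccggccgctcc
CXCL5: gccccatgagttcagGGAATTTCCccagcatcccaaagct
CXCL6: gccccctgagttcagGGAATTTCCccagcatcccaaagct
CXCL8: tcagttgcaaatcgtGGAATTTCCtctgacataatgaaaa
Base by base, the windows of CXCL1 and CXCL3 matched at 37 of 40 positions and those of CXCL5 and CXCL6 at 39, while the CXCL8 window matched the others at 16 to 19. The windows were aligned on the NF-kB letters, so 9 of the matches in each pair are fixed by the choice of window. Among the 6 members, the AP-1 letters TGANTCA (7.71% of promoters) and the TATA box letters TATAAA (11.5%) were present in the 300-base window of CXCL8 alone, both searched on both strands. The 100 bases before the GENCODE span of CXCL8 (chr4:73740419-73740518, plus strand) hold the AP-1 and then the NF-kB letters, in capitals, and its TATA letters lie closer to the RefSeq start, inside the GENCODE span.
CXCL8 promoter: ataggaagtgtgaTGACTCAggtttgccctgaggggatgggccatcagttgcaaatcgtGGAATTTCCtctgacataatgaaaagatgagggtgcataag
A match of letters does not show that a factor binds there, and the part of these letters in the CXCL8 change was not tested.

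The siRNA target was measured first. SFPQ had 22338, 23139 and 21753 counts in siControl and 3140, 3863 and 3151 in siSFPQ. The groups were far apart, and SFPQ mRNA fell by 2.73 on the log2 scale (SE 0.05, edgeR adjusted p = 6.3e-30).

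CXCL8 rose in siSFPQ, and of the 6 members it and CXCL3 alone had enough reads to be tested. It had 19, 10 and 35 counts in siControl and 103, 71 and 111 in siSFPQ. All siSFPQ libraries lay above all siControl libraries, with the lowest siSFPQ library at 71 and the highest siControl library at 35. Of 29022 tested genes, 25.9% separated the groups in that direction. Normalized counts (counts divided by effective library size) averaged 21.4 ± 12.7 (SD, n = 3) in siControl and 95.1 ± 22.2 (SD, n = 3) in siSFPQ. The log2 fold change was 2.15 (SE 0.29, 95% interval 1.56 to 2.73) with an edgeR quasi-likelihood adjusted p of 1.4e-07, a 4.43-fold difference. That change also passed the study's log2 threshold of 1.5. An adjusted p under 0.05 was reached in the upward direction by 22.4% of tested genes and downward by 22.1%, and 5.54% also exceeded a log2 fold change of 1.5.

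The CXCL8 libraries varied more than counting error alone would give. In siControl the counts spanned 3.5-fold from lowest to highest, with an SD of 12.7 where the square root of the mean count was 4.62. In siSFPQ they spanned 1.56-fold, with an SD of 21.2 against 9.75. Leaving out each library in turn moved the log2 fold change between 1.81 (without siControl replicate 2) and 2.70 (without siControl replicate 3), and the call held in all 6 cases.

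**Figure D1:**
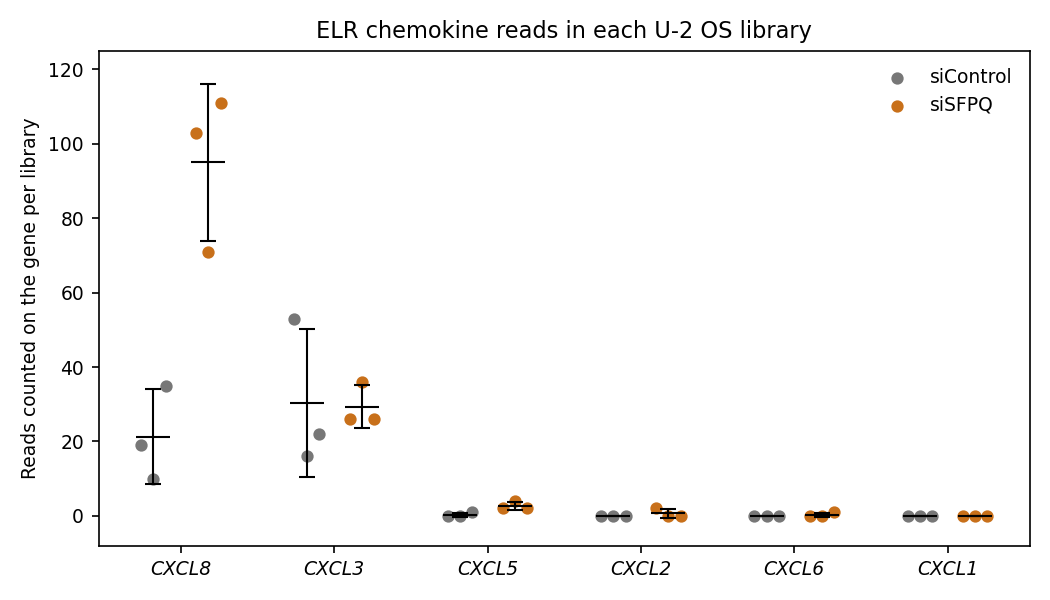
Reads counted on each ELR chemokine gene (y axis, reads per library) in siControl (grey) and siSFPQ (orange); points are libraries, and bars give the mean and SD of 3. CXCL8 separates the groups, with 10 to 35 reads against 71 to 111, CXCL3 overlaps, and the other members lie at 4 reads or fewer.

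CXCL3, which encodes a ligand of CXCR2, was the other member with enough reads to test, and it did not pass. Its counts were 53, 16 and 22 in siControl and 26, 36 and 26 in siSFPQ. The siSFPQ libraries fell inside the siControl range, whose top was set by replicate 1. The log2 fold change was -0.05 (SE 0.36, 95% interval -0.78 to 0.68, edgeR adjusted p = 0.92). Its sign turned to 0.62 without siControl replicate 1 (edgeR adjusted p = 0.17), so no direction is given for CXCL3. The upper end of the interval lay below the lower end of the CXCL8 interval.

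The remaining members were at or near 0. CXCL5, a CXCR2 ligand, had 0, 0 and 1 counts in siControl and 2, 4 and 2 in siSFPQ. Its 9 counts in total left it below the 10 required for testing, and the ratio of summed counts per depth was 8.33 with an exact 95% interval of 1.12 to 370, which covers counting error only. Fitted with no filter on low counts, its edgeR adjusted p was 0.27. CXCL2 had 2 counts, both in siSFPQ replicate 1, and CXCL6 had 1, in siSFPQ replicate 3. CXCL1 had 0 counts in all 6 libraries, which allows up to 0.0214 CPM (counts scaled to a common library total) in siControl and 0.0223 in siSFPQ at 3 counts over the group. Changes in CXCL1, CXCL2 and CXCL6 were therefore not detectable in these counts. The CXCL6 span overlaps the pseudogene PPBPP1 on the same strand, and the CXCL5 span overlaps a long noncoding RNA gene on the other strand. Both overlapping genes had 0 counts, and how reads in such overlaps were counted is not given in the sources used here.

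CXCL8 was a low-abundance mRNA here. It rose from 0.457 CPM, above 38.9% of tested genes, to 2.12 CPM, above 52.8%. CXCL3 stood at 0.653 CPM in both groups. On a per-length scale (RPKM, union of exons), siControl CXCL3 was at 0.294 ± 0.196 and CXCL8 at 0.177 ± 0.104 (SD, n = 3), an order within the spread. In siSFPQ the order was CXCL8 at 0.820 ± 0.189 and CXCL3 at 0.294 ± 0.0541, beyond the spread. In bulk RNA, more cells with CXCL8 and more CXCL8 mRNA per cell cannot be told apart.

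CXCL8 took a larger share of the ELR chemokine reads in each siSFPQ library than in any siControl library. Its share was 26.4%, 38.5% and 60.3% in siControl and 77.4%, 64.0% and 79.3% in siSFPQ. The groups did not overlap in the shares themselves, but the Wilson 95% intervals of siControl replicate 3 (47.5% to 71.9%) and siSFPQ replicate 2 (54.7% to 72.3%) overlapped. The log2 ratio of CXCL8 to CXCL3 counts averaged -0.50 ± 1.09 in siControl and 1.69 ± 0.61 in siSFPQ (SD, n = 3), a difference of 2.18 whose two-sided exact permutation p of 0.1 is the smallest this design allows. That ratio was chosen after it was seen that only these members had reads to compare.

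**Figure D2:**
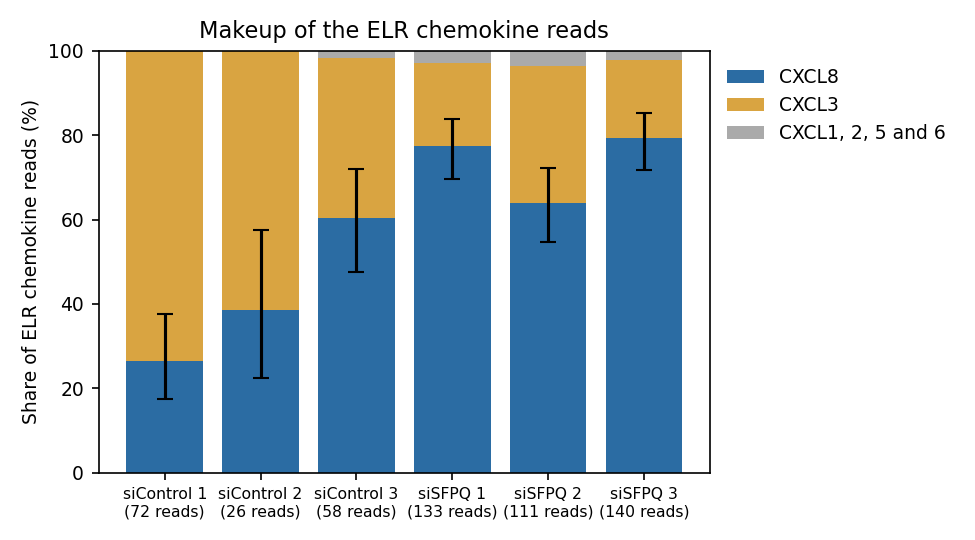
Share of all ELR chemokine reads (y axis, %) taken by CXCL8 (blue), CXCL3 (yellow) and the other members (grey) in each library, with the Wilson 95% interval of the CXCL8 share. The CXCL8 share lies between 26.4% and 60.3% in siControl and between 64.0% and 79.3% in siSFPQ.

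Long stretches of sequence were not shared among the members. No 100-base stretch of a member's canonical mRNA occurred in another member or in the pseudogene CXCL1P1, and 50-base stretches were shared for 5.33% of CXCL1, 10.1% of CXCL2 and 5.26% of CXCL3. Each canonical mRNA has 4 exons. The pentamer ATTTA, the core of AU-rich elements, occurred 6.09 times per kb in CXCL8 and from 3.9 (CXCL6) to 8.97 (CXCL2) across the members, against a median of 0.952 over 20046 canonical mRNAs. CXCL3, which did not pass, stood at 6.51 per kb.

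The chromosome 4 neighbourhood held 2 genes beside CXCL8 that rose, AREG and EREG. CXCL8 (ENSG00000169429) spans chr4:73740519-73743716 on the plus strand and CXCL3 (ENSG00000163734) spans chr4:74036589-74038807 on the minus strand, in GRCh38 with GENCODE 44. The 6 members cover 358.678 kb, and 500 kb on either side brings 35 genes of the table, 15 of them at 0 in every library and 12 tested. Of those 12, 3 rose, CXCL8 among them, and 0 fell, beside the 22.4% and 22.1% of all tested genes, so the share that rose was near the background. AREG, which encodes the epidermal growth factor receptor ligand amphiregulin, had 184, 223 and 230 counts in siControl and 496, 475 and 585 in siSFPQ. Its groups did not overlap, and its log2 fold change was 1.28 (SE 0.11, edgeR adjusted p = 3.0e-12). EREG, the neighbouring gene for epiregulin, a ligand of the same receptor, went from 84, 189 and 145 counts to 198, 214 and 207, a log2 fold change of 0.56 (SE 0.17, edgeR adjusted p = 0.0064) that did not pass without siControl replicate 1 (0.30, edgeR adjusted p = 0.071). AREG and EREG start 705 and 625 kb from CXCL8, with CXCL3 between them and CXCL8.

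**Figure D3:**
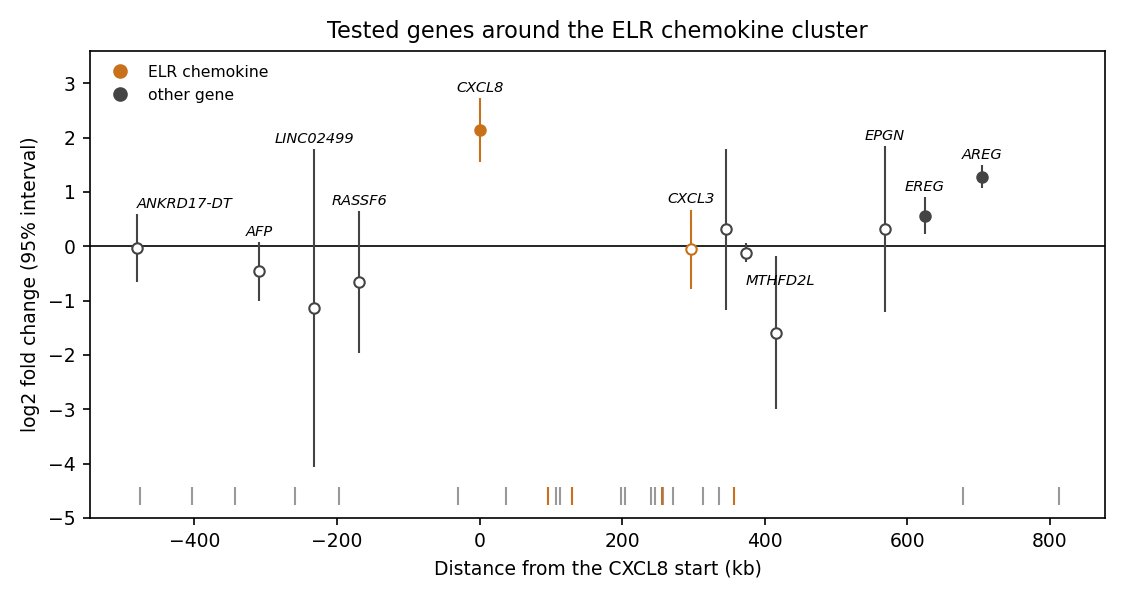
Log2 fold change with its 95% interval (y axis) of the 12 tested genes against distance from the CXCL8 start (x axis, kb); filled points have an adjusted p under 0.05, and ticks at the bottom mark genes that were not tested. CXCL8, EREG and AREG are filled, and CXCL3 is open at -0.05.

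Other CXC chemokines moved in both directions. Of 11 listed, 5 were tested, 2 rose and 1 fell, with 22.4% and 22.1% as the shares of all tested genes and a median log2 fold change of 0.23 against 0.02 over all of them. CXCL10, an interferon-induced ligand of CXCR3 that lacks the ELR motif, had 0, 0 and 3 counts in siControl and 10, 17 and 20 in siSFPQ. It rose (edgeR adjusted p = 3.4e-04), with a ratio of summed counts of 16.3 and an exact 95% interval of 5.25 to 82.0 for counting error. All its siControl counts were in replicate 3, and without that library siControl was at 0 and the fitted log2 fold change went from 3.80 to 6.98, a value that depends on the prior count. CXCL16, a membrane-bound chemokine, showed a log2 fold change of 0.23 (SE 0.09, edgeR adjusted p = 0.029). That call was lost with DESeq2 (adjusted p = 0.057) and in DESeq2 with the replicate number as a block (adjusted p = 0.161). It was also lost without any of 4 single libraries, siControl replicates 1 and 2 and siSFPQ replicates 1 and 2. There the log2 fold change of CXCL16 ran from 0.19 to 0.22. CXCL14, an epithelial and stromal chemokine without the ELR motif, was by far the most abundant CXC chemokine and went the other way, from 17720, 18938 and 17976 counts to 2170, 2864 and 2498. It fell by 2.87 on the log2 scale (SE 0.05, edgeR adjusted p = 6.2e-30). Summed over the list, these chemokines went from 394 to 411 CPM in siControl to 62.6 to 75.7 CPM in siSFPQ, against 0.552 to 1.56 and 2.44 to 3.07 CPM for the ELR members.

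Receptors of the ELR chemokines were scarce. CXCR1 had 0 counts in every library, CXCR2 had 31 counts summed over siControl and 37 over siSFPQ, and the decoy receptor ACKR1 had 388 and 358. Neither tested receptor passed. Among 5 other chemokine receptors, 3 were tested and 1 fell, where 22.1% of all tested genes fell. That one was ACKR3, a scavenger of CXCL12, with 1758, 1764 and 1726 counts against 611, 648 and 619, a log2 fold change of -1.49 (SE 0.06, edgeR adjusted p = 1.1e-20).

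Cytokines and signalling genes upstream of CXCL8 included several that rose. Of 14 cytokine and signalling genes, 11 were tested, 8 rose and 1 fell (median log2 fold change 0.26), where 22.4% of all tested genes rose and 22.1% fell. IL1A, which encodes the alarm cytokine interleukin-1 alpha, had 17, 20 and 23 counts in siControl and 67, 65 and 85 in siSFPQ. It rose by 1.84 on the log2 scale (SE 0.26, edgeR adjusted p = 4.1e-07), and its groups did not overlap. IL1B, for interleukin-1 beta, rose from 1 count over siControl to 24 over siSFPQ (edgeR adjusted p = 0.0040), a ratio of 25.0 with an exact interval of 4.08 to 1028 for counting error. Its 1 siControl count was also in replicate 3, without which the fitted log2 fold change of 4.14 became 6.02, again dependent on the prior count. The calls of CXCL10 and IL1B held when each single library was left out. TLR4, the lipopolysaccharide receptor, rose by 0.68 (SE 0.04), the adaptor MYD88 by 0.43 (SE 0.06) and the kinase IRAK1 by 0.26 (SE 0.04). IL1R1, the interleukin-1 receptor, was the one that fell, by 0.20 (SE 0.07, edgeR adjusted p = 0.016). It did not pass without siSFPQ replicate 1 or 3 or with library size alone. The IL1R1 call was also lost in DESeq2 with the replicate number as a block (adjusted p = 0.101).

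All 8 tested NF-kB subunits and kinases changed, 5 upwards and 3 downwards, beside 22.4% and 22.1% of all tested genes, with a median log2 fold change of 0.22. NFKB2, a precursor subunit of the noncanonical pathway, had 2367, 2568 and 2500 counts in siControl and 4278, 4182 and 4467 in siSFPQ. It rose by 0.79 (SE 0.04), its partner RELB by 0.57 (SE 0.08), NFKB1 by 0.30 (SE 0.05) and RELA by 0.29 (SE 0.04). REL and the kinase CHUK were among those that fell, by 0.28 (SE 0.07) and 0.17 (SE 0.04). Of 7 feedback inhibitors, 5 rose and 1 fell, against the same shares. TNFAIP3, the ubiquitin-editing enzyme A20, rose by 0.69 (SE 0.09), NFKBIE by 0.55 (SE 0.07) and NFKBIA by 0.26 (SE 0.06), while NFKBIB fell by 0.40 (SE 0.06).

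AP-1 and C/EBP factors moved both ways, and the factors of both families are known to act at the CXCL8 promoter. Of 10 tested, 6 rose and 3 fell, beside 22.4% and 22.1% of all tested genes. ATF3, a stress-induced partner of JUN, rose by 0.81 (SE 0.06), JUNB by 0.56 (SE 0.06) and FOS by 0.30 (SE 0.08). CEBPB and CEBPD, the C/EBP members of the list, fell by 0.78 (SE 0.08) and 0.89 (SE 0.12), and FOSL2 fell by 0.38 (SE 0.04). The smallest edgeR adjusted p of the listed factors was 7.4e-13, for ATF3.

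The list of AU-rich mRNA regulators held 10 genes, all tested. Of these, 1 rose and 3 fell, where 22.4% and 22.1% of all tested genes did, with a median log2 fold change of -0.06. ELAVL1 (HuR), which stabilises such mRNAs, fell by 0.77 (SE 0.04, edgeR adjusted p = 4.6e-17). ZFP36L2, a decay factor, fell by 0.36 (SE 0.06), and ZC3H12A (Regnase-1), an endonuclease that cleaves cytokine mRNAs, rose by 0.44 (SE 0.08). Of the 3 DBHS proteins and NEAT1, all tested, 2 rose and 1 fell, where 22.4% and 22.1% of all tested genes did. The one that fell was SFPQ itself, the siRNA target. NONO did not pass (log2 fold change 0.03, edgeR adjusted p = 0.50), although it passed with library size alone (0.09, edgeR adjusted p = 0.014). PSPC1, a paralog of SFPQ, rose by 1.13 (SE 0.04) and NEAT1 by 0.42 (SE 0.06, edgeR adjusted p = 6.5e-07). NEAT1 had 31046, 25603 and 34432 counts in siControl and 42141, 42343 and 37442 in siSFPQ, without overlap. These are counts on the whole NEAT1 gene in poly(A) RNA, so its transcript forms were not told apart.

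**Figure D4:**
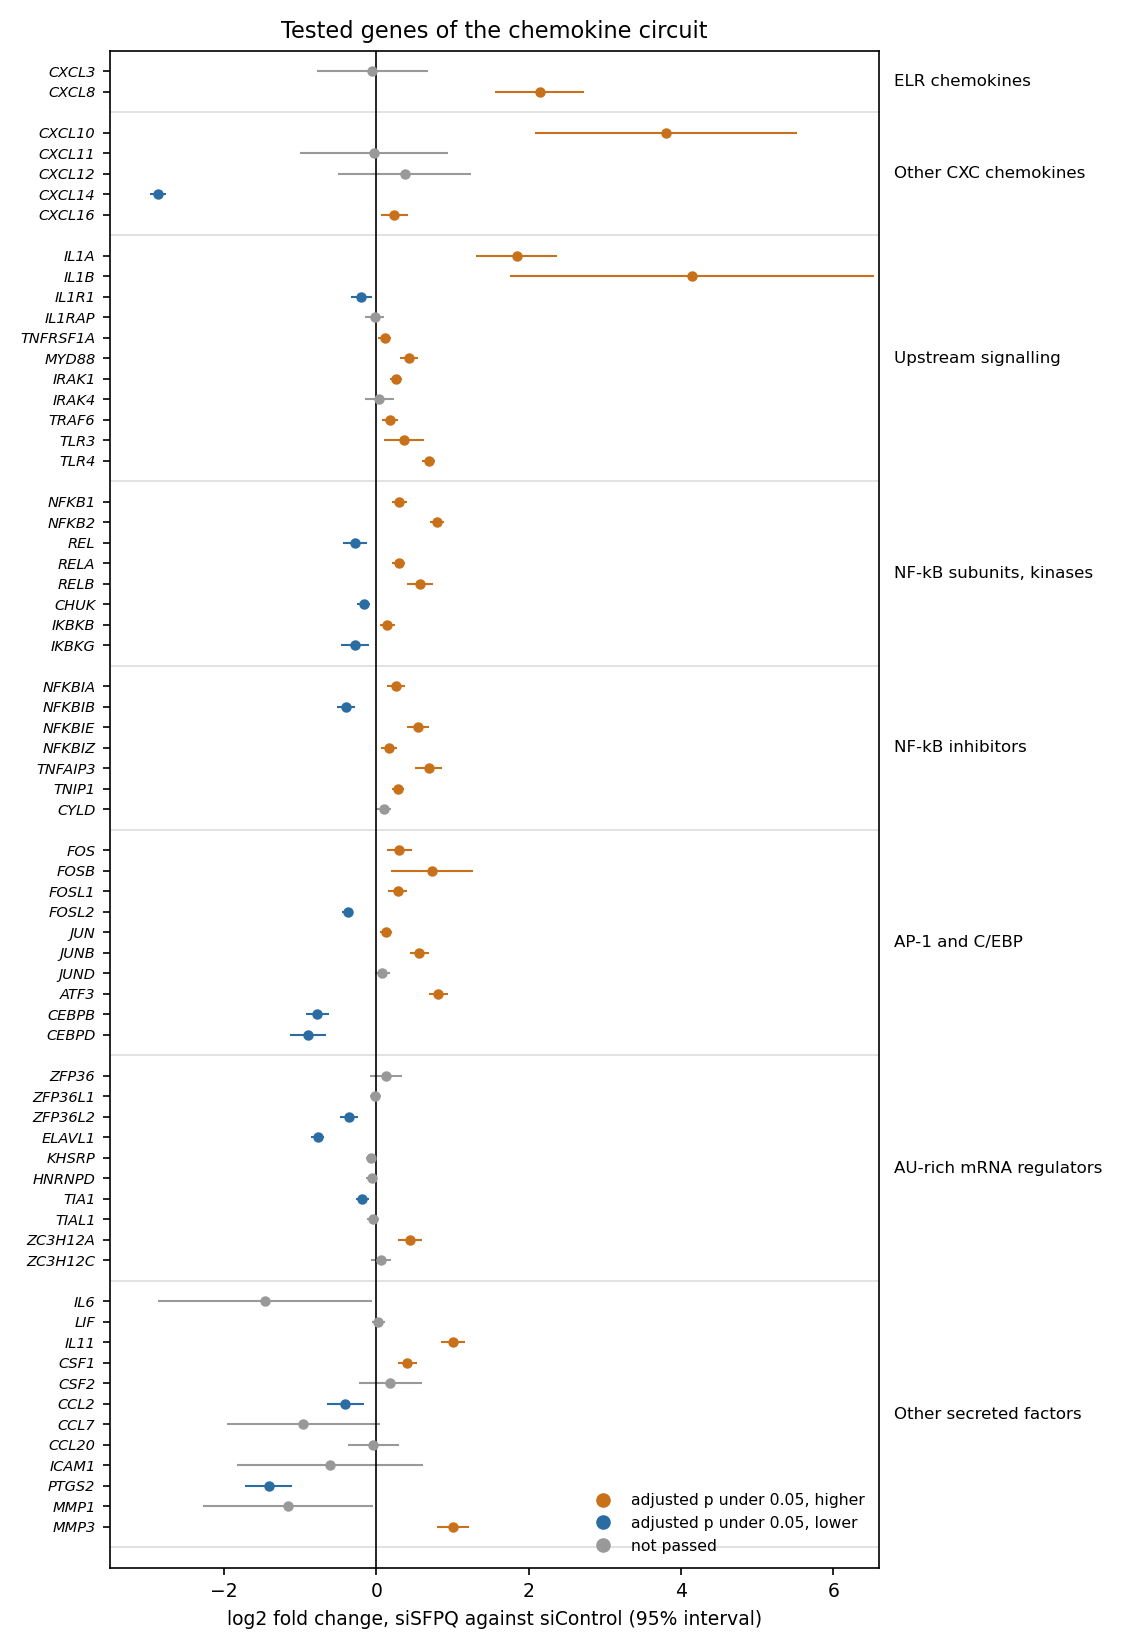
Log2 fold change, siSFPQ against siControl, with its 95% interval (x axis) for each tested gene of 8 lists (y axis); orange genes were higher and blue genes lower at an adjusted p under 0.05, and grey genes did not pass. CXCL8 at 2.15 is farther from 0 than any NF-kB or AP-1 gene plotted.

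Other products of genes that respond to NF-kB, mostly secreted, moved both ways. Of 13 listed, 12 were tested, 3 rose and 2 fell, shares near the 22.4% and 22.1% of all tested genes, and the median log2 fold change was -0.22. IL11, a bone-acting cytokine, rose by 1.01 (SE 0.08), MMP3, a matrix protease, by 1.00 (SE 0.10) and CSF1, a macrophage growth factor, by 0.41 (SE 0.06). PTGS2 (cyclooxygenase-2), an intracellular enzyme of prostaglandin synthesis on the list, had 294, 222 and 198 counts in siControl and 82, 94 and 92 in siSFPQ, and it fell by 1.42 (SE 0.15, edgeR adjusted p = 1.1e-09). CCL2, a monocyte chemokine, fell by 0.41 (SE 0.12) and did not pass without siControl replicate 3. Its call was also lost in DESeq2 with the replicate number as a block (adjusted p = 0.077). IL6 had 10, 8 and 13 counts against 4, 3 and 4 and did not pass (log2 fold change -1.47, edgeR adjusted p = 0.085).

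Several genes at a like level had a group shift like that of CXCL8. Likeness was the Euclidean distance between log2 CPM profiles over the 6 libraries, each centred on its siControl mean, among 1577 protein-coding genes within a factor of 2 of CXCL8's mean CPM. The nearest were TMEM156, TSPAN8, BAAT and BCL2A1, at distances of 0.67 to 0.875 where the median candidate stood at 3.74. TMEM156 had 12, 9 and 19 counts in siControl and 58, 49 and 61 in siSFPQ. BCL2A1, an anti-apoptotic gene known as an NF-kB target, had 11, 10 and 20 against 49, 63 and 82. Within siSFPQ their order of libraries was not always that of CXCL8, whose replicate 2 was lowest: BAAT had 60, 63 and 60 counts. These genes were picked for their likeness, so their values describe the pattern and do not test it.

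Markers of the labelled cell and of other cell types were read beside these results. All tested genes give the background for the counts of markers, 22.4% higher and 22.1% lower. Of 9 osteoblast lineage markers, COL1A1 and SPARC had the most counts in siControl, RUNX2 had 2541 to 2681 and SPP1 828 to 848. ALPL was lower, at 154 to 173 counts, COL1A2 had 31 to 49, and SP7, IBSP and BGLAP had 0 or 1 in each siControl library, so the labelled cell type's markers were present in part. Of the 9, 7 were tested, 1 rose (BGLAP, from 1 count over siControl to 17 over siSFPQ) and 3 fell, SPP1 by 1.33 (SE 0.08), COL1A1 by 0.35 (SE 0.04) and SPARC by 0.17 (SE 0.03). Of 11 leukocyte markers, 4 were tested, 2 rose (ITGAM and CSF1R) and 1 fell (PTPRC), and the list summed to 1.29 to 1.79 CPM in siControl and 1.89 to 2.39 CPM in siSFPQ, with PTPRC its most abundant gene in siControl (95 counts over the group) and CSF1R in siSFPQ (132). Among the genes of this list known from neutrophils, FCGR3B, MPO and S100A8 had 0 counts in every library, S100A9 had 2 counts over siControl and 1 over siSFPQ, and ITGAM and PTPRC, shared with other leukocytes, had 20 and 95 over siControl and 94 and 31 over siSFPQ. Of 4 endothelial markers, all tested, 2 rose (CDH5 and VWF, the most abundant) and the list summed to 4.42 to 5.79 CPM and 7.03 to 7.64 CPM. Of 5 epithelial markers, all tested, 2 rose, CDH1 and KRT18. KRT18, the most abundant, carried most of the epithelial sum of 131 to 135 CPM in siControl and 334 to 355 CPM in siSFPQ. The calls of BGLAP, CSF1R, CDH5 and CDH1 were each lost when at least 1 single library was left out. In DESeq2 with the replicate number as a block they were also lost (adjusted p = 0.0797, 0.18, 0.0596 and 0.0694). The CSF1R call was lost in DESeq2 without the block as well (adjusted p = 0.0898). ITGAM held its call, with a log2 fold change of 2.21 that became 3.89 without siControl replicate 1. The part of these markers in the CXCL8 change was not tested.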

How the data were processed

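The authors checked reads with FastQC, aligned them with STAR 2.7.9a to GRCh38 and deposited the unnormalized count for every Ensembl gene. The strand setting and the treatment of multiply mapped reads are not given in the sources used here. No column was left unused. Of the gene identifiers, 99.67% matched GENCODE 44. The main test was the quasi-likelihood test of edgeR 4.0.16 (R 4.3.3) on the condition alone, with TMM factors and Benjamini-Hochberg adjustment over the 29022 genes that had at least 10 counts in total. The study's methods used DESeq2, which here was an alternative (version 1.42.0). "Rose" and "fell" mean an adjusted p under 0.05. Standard errors come from the log2 fold change and the F statistic. Named genes are SFPQ, the members, genes of the lists with an adjusted p under 0.05, called neighbours within 500 kb and the genes nearest to CXCL8, and other genes were named after their values were seen. The members and gene lists were chosen with earlier results of these data known. On simulated counts for siSFPQ against siControl, with 200 of 28168 genes changed, 192 changed genes and 3 others were called. In the real data 22.4% of tested genes rose and 22.1% fell, a far larger share than was changed in the simulation. The simulated result holds for that setting only and does not give the error rate of the calls reported here. Within a group, replicate libraries differed by more than sampling noise (chi-square of 3.77 to 5.49 per degree of freedom). Intervals on counts cover counting error only, and 3 counts, the detection floor, correspond to 0.0637 to 0.069 CPM in a library.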

Additional observations from a re-analysis of the deposited data

How the results depend on the processing

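CXCL8 kept its direction and its call under all 15 alternatives, from 1.81 to 2.70, the range set by leaving out siControl replicate 2 or 3, and SFPQ stayed between -2.84 and -2.67 when single libraries were left out. With CXCL1, CXCL2 and CXCL3 summed before the fit, CXCL8 was at 2.15 and the sum at -0.02 (adjusted p = 0.97). CXCL3 changed sign, never with a call: 0.0054 with library size alone, 0.055 with the replicate number as a block, 0.10 with that block in DESeq2 (added after seeing the data), and -0.36 to 0.62 when single libraries were left out. Same-numbered libraries did not deviate together (correlations of -0.03, 0.07 and 0.03 over 15651 genes), so the numbers were not taken as pairs; with the replicate block CXCL8 was at 2.20 and the calls went from 6514 higher and 6421 lower to 6530 and 6424. With library size alone they were 7622 and 5502. In edgeR's block fit and in its fit with no filter the prior degrees of freedom were not finite (58044 and 162008 in total for CXCL8, against 31.7 in the fit reported), which makes their CXCL8 adjusted p of 2.0e-16 and 1.3e-15 smaller at nearly the same SE (0.26 in both, against 0.29). The DESeq2 adjusted p was 9.1e-09 without and 1.2e-07 with the block, and DESeq2's calls went from 5791 higher and 5842 lower to 4808 and 5064. Genes past a log2 fold change of 1.5 numbered 1609 higher and 1384 lower. With filterByExpr the counts were 967 higher and 996 lower. Over protein-coding genes alone, where fewer genes were tested, they were 581 and 830. When single libraries were left out they ran from 1203 to 1686 and from 1175 to 1357, and genes with an adjusted p under 0.05 from 5492 to 6411 higher and from 5403 to 6254 lower. The ELR count stayed at 1 throughout, also at a log2 threshold of 1. With the longest transcript as the length, the order of CXCL8 and CXCL3 within each group was the same as with the union of exons. At this depth CXCL1, CXCL2, CXCL5 and CXCL6 stayed below the 10 counts in total required for testing.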
